A study of Mus musculus with 37 samples.

Results

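The genes described here are the transcription factors and sterol sensors that set lipid synthesis: the sterol regulatory element binding proteins Srebf1 and Srebf2, their escort Scap, their retention proteins Insig1 and Insig2, the carbohydrate response element binding protein Mlxipl (ChREBP) and the liver X receptors Nr1h2 and Nr1h3. They were chosen by symbol: every probe set of the array table whose platform gene symbol is one of these 8 was taken. That gave 9 of the 22690 probe sets, for 6 of the 8 genes: 3 for Insig2, 2 for Srebf2 and 1 each for Srebf1, Scap, Mlxipl and Nr1h3. The table of gene names used here lists no probe set for Insig1 or Nr1h2, and these were not analysed here. No measured value entered the choice.

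Fat synthesis is governed by a small number of sensors. SREBP proteins are made as membrane precursors in the endoplasmic reticulum. Scap carries them to the Golgi for cleavage when sterols are low, and the Insig proteins hold Scap back when sterols are high; the form made from Srebf1 mainly drives fatty acid genes and the form made from Srebf2 mainly drives cholesterol genes. ChREBP responds to sugar metabolites, and liver X receptors respond to oxidised sterols and can raise Srebf1 transcription. In fat tissue, which makes up much of the mouse mammary gland, ChREBP and SREBP1 share many lipogenic target genes. Cleavage, nuclear entry and ligand binding are not seen by an array that measures mRNA.

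RNA was measured in whole mammary glands of female C57BL/6 mice, 9 weeks old at the start, over a study of 6 weeks. The groups were restricted mice with a running wheel (CR+EX, n = 9), restricted mice without one (CR, n = 9), freely fed mice with a wheel (AL+EX, n = 9) and freely fed mice without one (AL, n = 10). Restriction was by 30%, so restricted mice received 70% of the calories of freely fed mice and all of the other nutrients. The left and right thoracic glands of an animal were pooled, and each animal gave 1 Affymetrix array, 37 in all. The same strain, sex and starting age apply to all 4 groups, and animals, not probe sets, are the replicates.

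Values are the deposited signal intensities, which the authors had scaled: the 2% trimmed mean was 500.2 on every array. Adipocyte and luminal markers were present, with a mean signal of 18637 for Adipoq and 2837 for Krt8. Genes of skeletal muscle and of brown fat were measured too, with a mean signal of 29241 for Acta1 and 11498 for Ucp1. The glands also differed in lymphoid content. The mean log2 level over 10 B lymphocyte genes was 7.64 to 9.72 in 15 arrays and 6.22 to 6.86 in the other 22, and the 15 were 3 CR+EX, 4 CR, 4 AL+EX and 4 AL animals. The Gapdh 3′ to 5′ probe ratio, a sign of RNA integrity, was above 2 in 2 CR+EX and 3 AL animals. Animal numbers came in 4 runs of 8, 11, 10 and 8 arrays, each holding all 4 groups; whether a run was a batch is not stated in the labels. The 15 lymphoid-rich arrays were 3 of 8, 1 of 11, 3 of 10 and 8 of 8 in these runs, so leaving them out removes the fourth run.

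Of the 6 regulators tested, 1 passed the threshold under restriction: Mlxipl, which encodes ChREBP. Averaged over both wheel states, its level was 1.22-fold higher in the 18 restricted glands than in the 19 unrestricted ones, a log2 difference of 0.29 ± 0.086 (SE; 95% interval 0.12 to 0.47; limma, adjusted p = 0.027). This was 1 of 6, against 8.75% of all 9294 genes called in that comparison (4.19% higher and 4.56% lower). At the level of probe sets it was 1 of 9, against 7.31% of 16969. With so few genes, 1 call does not set the regulators apart from these shares. The call was lost with quantile normalization and without the 5 arrays of high Gapdh ratio. The other 5 regulators did not pass, and their differences were between -0.11 and 0.18. In bulk tissue, fewer cells of a type and less RNA per cell cannot be told apart, and this holds for every value that follows.

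**Figure D1:**
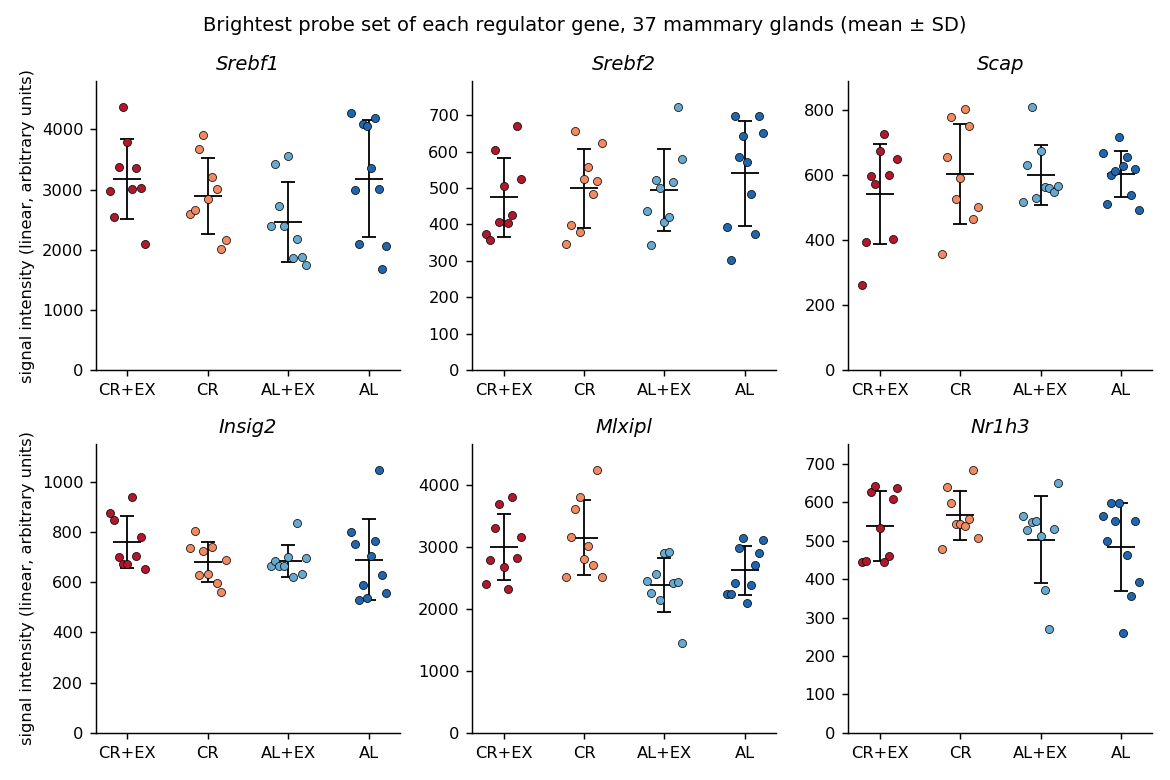
Signal intensity on a linear scale, in arbitrary units, of the brightest probe set of each regulator in all 37 glands. Each point is 1 animal, and bars are the mean ± SD of CR+EX (n = 9), CR (n = 9), AL+EX (n = 9) and AL (n = 10). The 4 groups overlap for every gene; for Mlxipl the median was 2834.5 in CR+EX and 3025.5 in CR, above 2431.5 in AL+EX and 2572.6 in AL.

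The Srebf1 gene encodes SREBP1, the SREBP form tied to fatty acid synthesis. Its probe set (1426690_a_at) had a lowest, median and highest signal of 2099, 3033.6 and 4365 in CR+EX glands and of 2010, 2847 and 3913 in CR glands. The same 3 values were 1741, 2400 and 3551 in AL+EX glands and 1685, 3189 and 4263 in AL glands. All 4 groups overlapped, AL+EX had the lowest median, and AL spread from the lowest to nearly the highest values of the whole set.

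The Srebf1 difference with restriction was positive in the wheel pair and negative in the pair without wheels, and none of its tests passed. With wheels, the log2 difference of CR+EX over AL+EX was 0.38 ± 0.17 (1.30-fold; unadjusted p = 0.036, limma adjusted p = 0.283). Without wheels, the difference of CR over AL was -0.10 ± 0.17 (adjusted p = 0.844). The interaction, which is the test of that contrast, was 0.47 ± 0.24 (unadjusted p = 0.058, limma adjusted p = 1.00). For the wheel itself, AL+EX over AL was -0.34 ± 0.17 (unadjusted p = 0.051, limma adjusted p = 0.754), and CR+EX over CR was 0.13 ± 0.17. These comparisons share groups and are not independent of each other. Averaged over wheel states the Srebf1 difference was 0.14 ± 0.12 (adjusted p = 0.525).

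Srebf1 signals lay lower in the glands rich in lymphoid genes. In the 15 glands high in B lymphocyte genes its median signal was 2099 (range 1685 to 3034), against 3372 (range 2185 to 4365) in the other 22. Lymphoid content and run overlap here: the fourth run, all of it lymphoid-rich, had a Srebf1 median of 2038 (n = 8). Within the first run the median was 2592 in 3 lymphoid-rich arrays and 2995 in the other 5, and within the third run 3010 in 3 and 3200 in the other 7. In the second run the 1 lymphoid-rich array had 2089, against a median of 3724.5 (range 2400 to 4365) in the other 10. The parts of lymphoid content and run in the Srebf1 values were not tested. Under restriction 0 of the 9 B lymphocyte genes tested passed in limma and 0 had an unadjusted p under 0.05, though all 9 differences were negative, with a median of -0.41 on the log2 scale. The shares of all genes were 8.75% and 23.9%. The mean over that list ran from 6.22 to 8.92 in CR+EX, 6.45 to 9.08 in CR, 6.39 to 9.64 in AL+EX and 6.59 to 9.72 in AL glands. With the B lymphocyte mean as a covariate, the averaged Srebf1 difference was 0.037, and without the 15 arrays it was 0.011. The wheel-pair difference, CR+EX over AL+EX, was 0.25 with that covariate and 0.26 without those arrays.

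RefSeq gives Srebf1 3 transcription starts in the mouse build GRCm38.p6. The window of the start farthest downstream, 250 bases before to 50 bases after it, is printed because Srebf1 is itself known as a target of liver X receptors. It covers chr11:60210422-60210721 on the minus strand. Capitals mark a match to the half-site GGTNA repeated in the same direction after a spacer of any 5 bases, the letters of an LXR-type element, read on the opposite strand. Both strands were searched, and the pattern is in 0.718% of 32851 windows of this length. Among the 15 windows of the 8 genes, only the one printed holds it, and the other Srebf1 windows do not. The window shown is thus the one with a match, so that share does not measure how unusual the match is. The match is a description of the letters and not a measured site.
Srebf1: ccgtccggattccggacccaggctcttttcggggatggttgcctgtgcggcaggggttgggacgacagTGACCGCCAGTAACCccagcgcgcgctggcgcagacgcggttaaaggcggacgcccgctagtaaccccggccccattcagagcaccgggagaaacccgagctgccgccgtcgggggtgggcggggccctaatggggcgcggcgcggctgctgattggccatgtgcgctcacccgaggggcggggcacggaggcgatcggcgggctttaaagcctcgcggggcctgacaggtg

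The 3 genes of the sterol-sensing switch did not pass in any comparison. Srebf2 encodes SREBP2, the cholesterol-directed form. Its brighter probe set (1452174_at) had a lowest, median and highest signal of 357, 426 and 670 in CR+EX and of 346, 518 and 657 in CR glands. In AL+EX glands these were 344, 501 and 721, and in AL glands 303, 577.85 and 698. The groups overlapped over nearly their whole range. The averaged difference with restriction was -0.07 ± 0.11 (limma, adjusted p = 0.735; 95% interval -0.30 to 0.15). Its second probe set (1426744_at) gave -0.16 ± 0.15, and the levels of the pair of probe sets correlated with r = 0.67 over the 37 arrays.

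Scap (1433520_at) encodes the escort that binds SREBP precursors and senses cholesterol. Its lowest, median and highest signals were 262, 597 and 726 in CR+EX glands and 358, 590 and 803 in CR glands. They were 518, 564.5 and 809 in AL+EX glands and 492, 615 and 716 in AL glands. The medians lay close together, and the lowest values were those of restricted animals: the SD of the log2 level was 0.46 in CR+EX and 0.38 in CR, against 0.20 in AL+EX and 0.17 in AL. The 2 CR+EX arrays with a high Gapdh ratio, both in the first run, had 262 and 393.5, and the lowest CR array was also of that run. Without the high-ratio arrays the SD was 0.27 in CR+EX and 0.38 in CR, against 0.20 in AL+EX and 0.16 in AL, and the averaged difference was -0.03 ± 0.097. The spread was not tested. The averaged Scap difference was -0.11 ± 0.10 (limma, adjusted p = 0.558; 95% interval -0.33 to 0.10).

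Insig2 encodes a retention protein of the endoplasmic reticulum that keeps Scap and its SREBP cargo from leaving. Its brightest probe set (1417981_at) had signals of 651, 705 and 938 (lowest, median and highest) in CR+EX and of 562, 687 and 805 in CR glands. The values were 620, 666 and 836 in AL+EX and 528, 666 and 1047 in AL glands, so the AL group covered all others. The averaged difference was 0.07 ± 0.073 (limma, adjusted p = 0.610; 95% interval -0.08 to 0.22). Over the 37 arrays the brightest Insig2 probe set had r = 0.56 with 1417980_a_at, and 1417982_at had r = -0.11 and 0.09 with the other two. The averaged difference was -0.02 ± 0.15 for 1417980_a_at and 0.15 ± 0.10 for 1417982_at, neither past the threshold. Which transcript each probe set reports was not tested.

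Mlxipl encodes ChREBP, which turns on glycolytic and lipogenic genes when sugar is plentiful. Its probe set (1419185_a_at) had a lowest, median and highest signal of 2328, 2834.5 and 3812 in CR+EX and of 2518, 3025.5 and 4249 in CR glands. The values were 1454, 2431.5 and 2917 in AL+EX and 2099, 2572.6 and 3153 in AL glands. Restricted groups had the higher medians, and the ranges overlapped in every pair. As means, the signal was 3004 ± 529 in CR+EX and 3159 ± 610 in CR, against 2397 ± 438 in AL+EX (SD, n = 9 each) and 2628 ± 396 in AL (SD, n = 10).

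The Mlxipl difference was positive in both wheel states. CR+EX over AL+EX gave 0.33 ± 0.12 (unadjusted p = 0.011, limma adjusted p = 0.170) and CR over AL gave 0.26 ± 0.12 (unadjusted p = 0.039, adjusted p = 0.311), so neither pair passed on its own. The interaction was 0.07 ± 0.17, with a 95% interval of -0.27 to 0.42. The widest gap between groups was that of CR over AL+EX, 0.40 ± 0.12 (adjusted p = 0.086); with the run of animal numbers as a block it was 0.42 with an adjusted p of 0.021, past the threshold along with 8.1% of genes. The averaged difference in that fit was 0.30 ± 0.080 (adjusted p = 0.0083), against 18.8% of genes called. Without that block, the call at the level of probe sets was lost when CR replicate 4 or 8 or CR+EX replicate 4 or 7 was left out. Leaving out each of 37 arrays in turn kept the averaged gene difference between 0.25 and 0.31, with limma adjusted p-values of 0.017 to 0.048. Quantile normalization gave 0.24 (adjusted p = 0.067), and leaving out the 5 arrays with a high Gapdh ratio gave 0.29 (adjusted p = 0.054), both outside the threshold.

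Mlxipl was also read against the cell content of the glands. The median Mlxipl signal was 2713 in the 15 glands high in B lymphocyte genes, against 2805 in the other 22. Without those 15 arrays the averaged difference was 0.35 (limma, adjusted p = 0.036), and with the B lymphocyte mean as a covariate it was 0.29 (adjusted p = 0.028). Leaving out those arrays also removes the fourth run, so lymphoid content and run cannot be told apart in that fit. Among 9 adipocyte markers tested, 1 was higher and 1 lower under restriction, with a list median of 0.21. The mean over the adipocyte list ran from 11.9 to 13.1 in CR+EX, 11.6 to 13.2 in CR, 12.1 to 12.8 in AL+EX and 12.2 to 13.4 in AL glands. Among 12 luminal markers 0 were higher and 1 was lower, with a median of -0.37. Over the 37 arrays, after centring on group and run, Mlxipl correlated with the means of 9 marker lists between r = -0.49 (basal epithelium) and r = 0.12 (brown fat), with -0.43 for macrophages, -0.30 for luminal epithelium and -0.18 for adipocytes. The part of epithelial or macrophage content in the Mlxipl difference was not tested.

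Mlxipl has 2 RefSeq starts in GRCm38.p6. Both windows are printed because Mlxipl is the regulator that passed and its upstream start is known in mice to give a second ChREBP isoform. They cover chr5:135089640-135089939 and chr5:135106641-135106940, both on the plus strand. Capitals mark the E-box CACGTG, the core that ChREBP-type factors bind, searched on both strands and found in 7.15% of 32851 windows; it occurs in the upstream window and not in the downstream one. The sterol element core TCACCCC, in 4.97% of windows, was searched too and is in none of the 3 windows printed here. Windows of Insig1 and Scap also hold the E-box, and windows of Srebf2, Insig2 and Nr1h3 hold the sterol core, so neither pattern is particular to Mlxipl. The array gives 1 value for the gene, and which start it reflects was not tested.
Mlxipl upstream start: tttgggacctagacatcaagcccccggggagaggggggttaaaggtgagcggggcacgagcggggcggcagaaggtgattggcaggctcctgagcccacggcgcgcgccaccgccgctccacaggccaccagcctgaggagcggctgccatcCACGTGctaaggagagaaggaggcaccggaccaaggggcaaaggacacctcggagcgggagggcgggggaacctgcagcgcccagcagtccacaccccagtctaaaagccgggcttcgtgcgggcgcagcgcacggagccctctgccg
Mlxipl downstream start: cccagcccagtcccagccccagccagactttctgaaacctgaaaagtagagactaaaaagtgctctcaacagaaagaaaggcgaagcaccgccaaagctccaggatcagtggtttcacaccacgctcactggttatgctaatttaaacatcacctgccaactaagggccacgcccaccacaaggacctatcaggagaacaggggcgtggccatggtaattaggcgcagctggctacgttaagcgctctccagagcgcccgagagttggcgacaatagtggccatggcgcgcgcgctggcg

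Nr1h3 encodes LXR alpha, the liver X receptor typical of fat, liver and macrophages. Its probe set (1450444_a_at) had a lowest, median and highest signal of 443.5, 531.5 and 643 in CR+EX and of 479, 544 and 683.5 in CR glands. The values were 270, 530 and 648.5 in AL+EX and 260, 524 and 597.5 in AL glands. The 4 medians were nearly level, and the lowest signals of both unrestricted groups lay below all restricted ones. Over all runs the averaged difference was 0.18 ± 0.099 (limma, adjusted p = 0.257; 95% interval -0.02 to 0.38). With runs as a block it was 0.19 with an adjusted p of 0.0775. Among the marker lists Nr1h3 went most with endothelium (r = 0.61) and adipocytes (r = 0.37), whose part in this value was not tested.

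**Figure D2:**
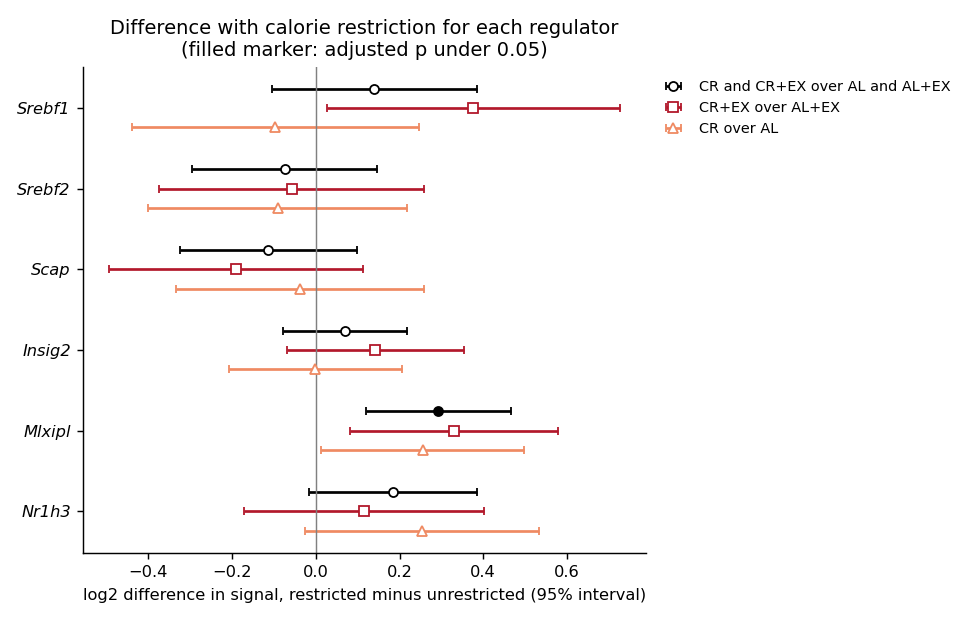
Log2 difference in signal, restricted minus unrestricted, with its 95% interval for each regulator: averaged over wheel states (circles), CR+EX over AL+EX (squares) and CR over AL (triangles). The only filled marker, for an adjusted p under 0.05, is the averaged Mlxipl difference of 0.29; Srebf1 has its squares and triangles on opposite sides of 0, at 0.38 and -0.10.

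In each of the 6 pairs of groups limma called 0 of 6 regulators. The background was 0.441% of genes for CR over AL, 1.65% for CR+EX over AL+EX, 1.97% for CR over AL+EX and 0.624% for CR+EX over AL. It was 0% for AL+EX over AL and 0% for CR+EX over CR. At an unadjusted p under 0.05 in the limma fit, Mlxipl passed in 3 of these pairs (CR over AL, CR+EX over AL+EX, CR over AL+EX) and Srebf1 in 1 (CR+EX over AL+EX). The shares of all genes at that level were 14.9% for CR over AL, 15.2% for CR+EX over AL+EX, 16.5% for CR over AL+EX and 13.1% for CR+EX over AL. They were 6.46% for AL+EX over AL and 0.893% for CR+EX over CR, where no regulator passed.

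The running wheel moved none of the regulators past the threshold. For the wheel averaged over diets limma called 0 of 6, against 0% of the 9294 genes, with 2.86% of genes and 0 regulators at an unadjusted p under 0.05. The interaction also gave 0 of 6 against 0%, with 3.17% of genes and 0 regulators at an unadjusted p under 0.05. The averaged wheel differences were -0.10 ± 0.12 for Srebf1, -0.09 ± 0.11 for Srebf2, -0.09 ± 0.10 for Scap, 0.09 ± 0.073 for Insig2, -0.11 ± 0.086 for Mlxipl and -0.01 ± 0.099 for Nr1h3. The 95% intervals were -0.35 to 0.14 for Srebf1, -0.06 to 0.23 for Insig2 and -0.28 to 0.07 for Mlxipl.

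Set against each other regulator within the same array, as the averaged difference of a log2 ratio, Mlxipl was higher under restriction by 0.41 relative to Scap and by 0.37 relative to Srebf2. The gap was 0.22 relative to Insig2, 0.15 relative to Srebf1 and 0.11 relative to Nr1h3. Mlxipl was set against the others because its difference was the largest of the 6, so these gaps are a description and carry no test.

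The difference under restriction was also read within each run of animal numbers. Mlxipl was higher in restricted animals in 4 of 4 runs, by 0.24, 0.36, 0.21 and 0.39. In the fourth run CR over AL was 0.12 and CR+EX over AL+EX was 0.67. That run holds AL+EX replicate 9, whose Mlxipl signal of 1454 lay far below the rest of its group. Nr1h3 differed by -0.11, 0.06, 0.55 and 0.21, Srebf1 by -0.25, 0.32, 0.22 and 0.32, and Scap by -0.53, -0.05, 0.22 and -0.15. Insig2 gave 0.17, 0.15, -0.08 and 0.09, and Srebf2 gave 0.01, -0.14, -0.01 and -0.18. For Srebf2, the run took 58.9% of the sum of squares and the group 3.27%. For Srebf1 these shares were 43.7% and 14.2%, for Nr1h3 39.99% and 10.8%, for Insig2 32.2% and 9.77% and for Scap 29.3% and 6.68%. Mlxipl was the reverse, with 12.0% for the run and 28.7% for the group.

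**Figure D3:**
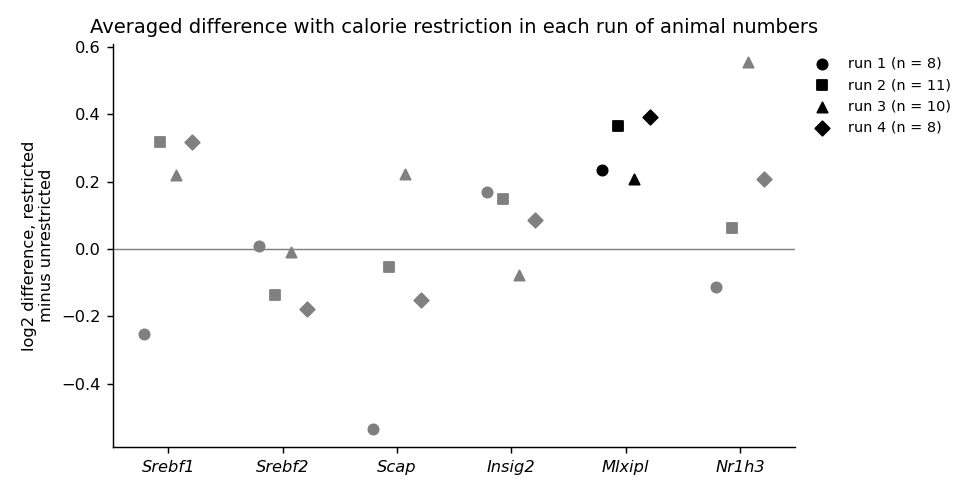
Log2 difference, restricted minus unrestricted and averaged over wheel states, of each regulator within each of the 4 runs of animal numbers (8, 11, 10 and 8 arrays). Mlxipl, drawn in black, lies above 0 in every run, between 0.21 and 0.39, and the other 5 genes have runs on both sides of 0. The Mlxipl value of 0.39 is that of the fourth run, which holds the far AL+EX replicate 9 (signal 1454).

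The genes around the regulators were read from 7 lists, whose counts stand against 8.75% of all genes called under averaged restriction (4.19% higher and 4.56% lower), or 18.8% with runs as a fixed block. SREBP processing and turnover holds the coat proteins, proteases and degradation factors of the SREBP cycle; 22 of 31 were tested, and under restriction 1 was higher and 1 lower, with a median of -0.09. That is close to the share among all genes, and over all 9294 genes the median was -0.02. With runs as a fixed block 2 were higher and 3 lower, and with the mean of all probe sets 0 were higher and 3 lower. Pgrmc2, a membrane protein of the progesterone receptor component family, was higher by 0.47 ± 0.12 (limma, adjusted p = 0.013). Gsk3b, the kinase that marks nuclear SREBP for degradation, differed by -0.56 ± 0.14 (adjusted p = 0.0080).

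Partners of the 3 factor families, which are dimer partners and coactivators, gave 0 higher and 3 lower of 23 tested, with a median of -0.06. Crebbp, an acetyltransferase coactivator, differed by -0.51 ± 0.11 (limma, adjusted p = 0.0038), and Med15, the Mediator subunit that binds SREBP, by -0.25 ± 0.073 (adjusted p = 0.028). Sp1, a general factor that acts beside SREBP, differed by -0.66 ± 0.18 (adjusted p = 0.017), but its other probe set pointed the opposite way. Mlx, the partner ChREBP needs to bind DNA, gave -0.06 ± 0.079 (adjusted p = 0.688). Rxra, a partner of liver X receptors, gave -0.03 ± 0.14 (adjusted p = 0.938). With all arrays in the limma fit, 4 of the 23 partners had an unadjusted p under 0.05, against 23.9% of all genes. When the 15 lymphoid-rich arrays were left out, limma called 0 of the 23 partners, against 5.53% of all genes called. In that fit 5 of the 23 had an unadjusted p under 0.05, and the share of all genes at that level is not given here. The list median stayed at -0.06, and the differences were -0.40 ± 0.12 for Crebbp, -0.49 ± 0.22 for Sp1 and -0.20 ± 0.0995 for Med15.

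Most of the calls in these lists fell among the lipogenic and sterol target genes. Of 19 lipogenic targets of SREBP1 and ChREBP tested (22 listed), 10 were higher and 0 lower, with a median of 0.43. Aacs, which makes acetoacetyl-CoA in the cytosol, rose by 1.08 ± 0.17, and Me1, malic enzyme, by 1.02 ± 0.14. Elovl6, a fatty acid elongase, rose by 1.01 ± 0.12 and Acss2, acetyl-CoA synthetase, by 1.01 ± 0.20. The limma adjusted p of these 4 lay between 1.9e-06 and 0.0013, and each was about 2.0-fold to 2.1-fold higher in restricted glands. Of 19 sterol targets of SREBP2 tested (25 listed), 6 were higher and 0 lower, with a median of 0.25. Pmvk, a kinase of the mevalonate route, rose by 0.87 ± 0.13 (adjusted p = 6.5e-05) and Nsdhl, a late sterol dehydrogenase, by 0.55 ± 0.090 (adjusted p = 0.00014).

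Probe sets of 2 sterol genes disagreed. Fdps, farnesyl diphosphate synthase, rose by 0.93 ± 0.18 on its brightest probe set and the second pointed the opposite way. Cyp51, lanosterol demethylase, rose by 0.73 ± 0.17, and 1 of its 2 further probe sets pointed the same way. When the 15 lymphoid-rich arrays were left out, 8 of the lipogenic and 4 of the sterol genes were higher, and without the 5 arrays of high Gapdh ratio 10 and 5 were; 5.53% and 6.69% of all genes were called in these fits. With runs as a fixed block 13 lipogenic and 9 sterol genes were higher, against 18.8% of all genes called. In every one of these fits 0 of either list were lower.

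The sugar-handling targets of ChREBP gave 2 higher and 0 lower of 11 tested, with a median of 0.08. These were Gpd1, which makes glycerol phosphate (0.49 ± 0.15, limma adjusted p = 0.038), and Taldo1, transaldolase (0.41 ± 0.086, adjusted p = 0.0024). LXR targets gave 0 of 16 in either direction in limma, with a median of -0.04. At an unadjusted p under 0.05 there were 3 of the 16, against 23.9% of all genes. Among them the smallest p was that of Smpdl3a, a phosphodiesterase, at -0.18 ± 0.063 (adjusted p = 0.071). With runs as a block 1 LXR target of the 16 was higher and 2 were lower, near the 18.8% of all genes called in that fit. These 3, named after their values were seen, were Lpcat3, a phospholipid remodelling enzyme (0.24, adjusted p = 0.032), Abcg1, a cholesterol exporter (-0.39, adjusted p = 0.0018), and Smpdl3a (-0.18, adjusted p = 0.033). Sterol transport and esterification gave 0 higher and 2 lower of 11: Npc1, which exports cholesterol from lysosomes (-0.65 ± 0.18, adjusted p = 0.015), and Cyp27a1, a mitochondrial sterol hydroxylase (-0.36 ± 0.080, adjusted p = 0.0037). With runs as a block this list had 1 higher and 3 lower of 11, against 18.8% of all genes called. The added calls, also named after their values were seen, were Npc2, the lysosomal partner of Npc1 (0.26, adjusted p = 0.0074), and Vldlr, a lipoprotein receptor (-0.49, adjusted p = 0.019). For the wheel averaged over diets limma called 0 genes in each of the 7 lists, and 1 lipogenic, 1 LXR and 1 transport gene had an unadjusted p under 0.05. Over all genes that share was 2.86%.

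**Figure D4:**
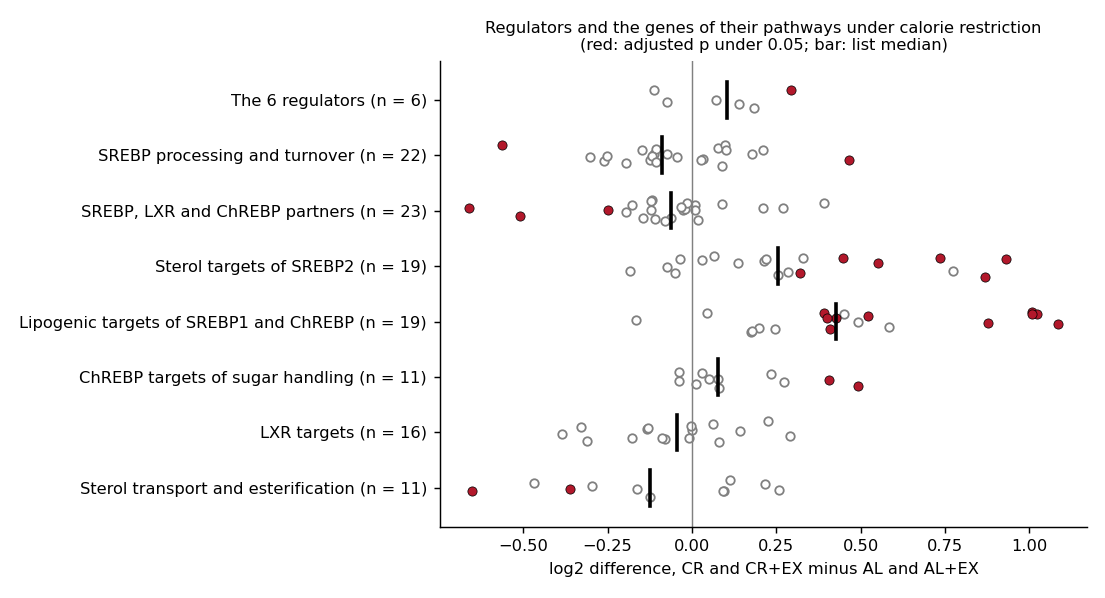
Log2 difference of each tested gene, CR and CR+EX minus AL and AL+EX, for the 6 regulators and the 7 lists of genes around them; red points have an adjusted p under 0.05 and black bars are list medians. Most red points are in the lipogenic list (median 0.43, 10 of 19 called) and the sterol list (median 0.25, 6 of 19 called); the regulators run from -0.11 to 0.29.

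Between animals, over all 37 glands, the only regulator whose relation to the target genes passed was Srebf1. Each regulator was set against the mean log2 level of each target list over the 37 glands, after both were centred on group and run, which leaves differences between animals of the same group and run. Of the 12 relations computed, 2 passed. Srebf1 against the lipogenic mean gave r = 0.62 and rho = 0.59 (permutation within run, adjusted p = 0.0012 and 0.0020). Srebf1 against the sterol mean gave r = 0.57 and rho = 0.59 (adjusted p = 0.0022 and 0.0020). Without the 2 arrays farthest from the Srebf1 median, r was 0.65 and 0.56. For the other 10 relations the adjusted p of r was at least 0.528. Mlxipl gave r = 0.08 with the lipogenic and 0.14 with the sterol mean, and Srebf2 gave 0.07 and -0.07; the difference between these and the Srebf1 values was not tested.

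Markers of cell content moved with the Srebf1 relation. In the 15 glands high in B lymphocyte genes r was 0.76 with the lipogenic and 0.65 with the sterol mean. In the other 22 it was 0.43 and 0.44. Mlxipl also differed by this split: its r was -0.13 and -0.09 in the 15 glands. In the other 22 its r was 0.33 with the lipogenic and 0.43 with the sterol mean. These values within parts of the arrays were not tested. After the same centring, Srebf1 itself correlated with the adipocyte marker mean (r = 0.65), the B lymphocyte mean (r = -0.63) and the brown fat mean (r = -0.60). When the levels were centred on the adipocyte and B lymphocyte means as well, r was 0.40 with both lists (adjusted p = 0.174 each), past no threshold. Of 9274 other genes outside the lists, 0.701% had a higher r with the lipogenic mean than Srebf1 and 1.00% a higher r with the sterol mean.

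**Figure D5:**
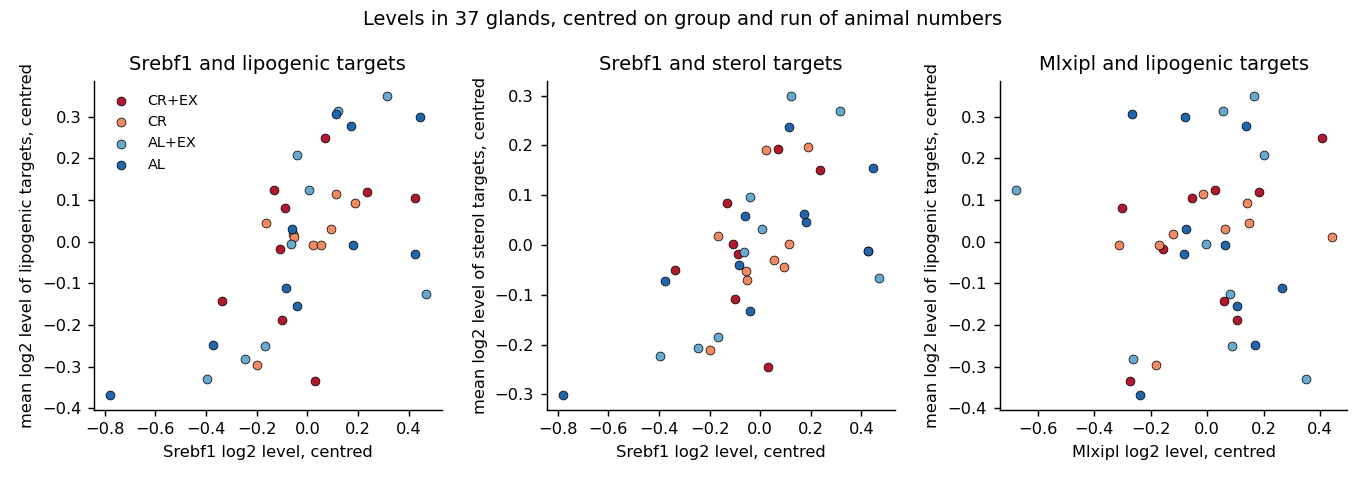
Levels in the 37 glands after centring on group and run: Srebf1 against the mean of 19 lipogenic targets (r = 0.62), Srebf1 against the mean of 19 sterol targets (r = 0.57) and Mlxipl against the lipogenic mean (r = 0.08). Both axes are log2 levels relative to group and run; points are single animals coloured by group, and the Mlxipl panel has little slope.

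The genes most like each regulator were looked up by Pearson r over the 37 arrays, centred on group and run, as the top 3 of 9293 genes. For Srebf1 these were Ptger3 (r = 0.72), Cspg4 (0.72) and Prkci (0.68), and for Mlxipl Psmb5 (0.71), Poldip2 (0.67) and Smdt1 (0.67). Nr1h3 was nearest to Mesp1 (0.73), Sox14 (0.72) and Slc27a4 (0.72), and Srebf2 to Macroh2a1 (0.71), Shc1 (0.62) and Plekhj1 (0.61). Scap had Grhpr (0.67), Ifnar2 (0.66) and Rbms2 (0.65), and Insig2 had Zfp386 (0.67), Tomm20 (0.66) and Art3 (0.65). These are the highest of many values, share arrays and scaling, and carry no test. None of the 6 regulators was among the top 3 of another.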

How the data were processed

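Signal intensities were used as deposited on a linear scale; per the submitters' processing notes the authors used GCOS version 1, and other steps of theirs are unstated. The genes and lists were chosen with earlier results of these data known. Signals were taken as log2(signal + 16). For each of 12393 genes the brightest probe set over all arrays was used, and the dimmest 25% of genes were left out, which left 9294 with all 6 regulators among them. Differences came from limma 3.58.1 in R 4.3.3: group means over 37 arrays, trended empirical Bayes variances, 9 contrasts, two-sided tests, Benjamini-Hochberg over all genes of a contrast, and a call at an adjusted p under 0.05. Errors after ± are standard errors unless SD is written. The labels number each animal once, so replicates are single animals. Arrays carry no counts, so their number limits the precision. Data were also simulated for the averaged contrast with 9294 genes. There 72% of 100 genes shifted by 0.5 and 95% of 100 shifted by 1 were recovered, with 11 false among 178 calls. The simulated noise was drawn independently for each gene and array, without run or lymphoid differences. Both shifts were larger than any averaged regulator difference, so recovery of differences of the size of the regulators was not simulated. Alternatives were other scalings, offsets, filters, variance models, probe rules, blocks by run of animal numbers, cell content and single arrays left out. Named list genes were up to 4 higher and 4 lower past the threshold, or the smallest p of a list without calls; Mlx and Rxra were named for their role after their values were seen. All 8 symbols matched RefSeq promoter windows.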

Additional observations from a re-analysis of the deposited data

Results flagged for a closer look

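Of 36 sets of values (9 probe sets in 4 groups), 2 held an array that stood far from the rest of its group, measured as the gap to its neighbour over the range of the group on the log2 scale. About 1 set in 20 does so by chance. AL+EX replicate 9 had the lowest Mlxipl signal of its group, 1454, against 2151 for the next lowest; this gland was among those high in B lymphocyte genes. Without it the averaged Mlxipl difference was 0.25 (limma, adjusted p = 0.040), against 0.29 with it. AL+EX replicate 7 had the highest Insig2 signal on 1417981_at, 835.9, against 699.9 for the next highest.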

How the results depend on the processing

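No paired analysis was possible because animal numbers are unique and replicate numbers follow accession order only, so no replicate block could be fitted. The averaged Mlxipl difference stayed between 0.24 and 0.36 over 16 settings. Regulators called under averaged restriction numbered 0 with quantile normalization (7.94% of all genes called) and 0 without the high Gapdh arrays (6.69%). They numbered 2 (Mlxipl, and Nr1h3 at 0.25 and 0.24) when the run was a fixed block with median centring (17.3%) or with quantile normalization (17.1%). Leaving out single arrays gave 1 to 1. Probe sets called were 0, 0, 3 and 3 in those 4 fits, the third being Insig2 1417982_at. Single arrays left out gave 0 to 1, and it was 0 without CR replicate 4 or 8 or CR+EX replicate 4 or 7. For CR+EX over AL+EX, 2 regulators (Mlxipl and Srebf1) passed with median centring and run block. For CR over AL+EX, 1 (Mlxipl) passed with the fixed block, the random block and both combinations, and 0 to 1 with single arrays left out (1 without CR replicate 1). The relations to target lists numbered 0 after centring on cell content, against 2, and Scap to the lipogenic mean joined them (r = 0.44) without run centring. With runs as a fixed or random block, 3 LXR targets were called against 0, and 4 transport genes against 2. These blocks called 18.8% and 17.9% of all genes, against 8.75% without a block. The cause of these shifts was not tested.

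Directions turned for small differences. Srebf2 was 0.0040 without the B lymphocyte-high arrays. The Mlxipl interaction was -0.071 without them, and -0.013 to 0.13 with single arrays left out. Srebf1 in CR+EX over AL was -0.021 (quantile), -0.18 (without B lymphocyte-high arrays), -0.092 (covariate) and -0.022 (quantile and block), and -0.057 to 0.11 with single arrays left out. Of all genes, averaged restriction called 514 to 1743 over 17 fits, against 813; CR over AL 9 to 573, against 41; CR+EX over AL+EX 55 to 702, against 153; CR over AL+EX 12 to 753, against 183; CR+EX over AL 3 to 347, against 58. Probe sets called ran from 619 to 2965, against 1240. Scaling moved the median of all genes by less than 0.1 on the log2 scale.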
